A study of Danio rerio with 54 samples.

Results

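The levels of 9 genes of glia and myelin were followed through lethal cold and rewarming of zebrafish larvae, with attention to the larvae that survived the cold but stayed abnormal. The 9 genes were selected by symbol: *mbpa*, *mpz*, *plp1a*, *plp1b*, *cldnk*, *olig2*, *sox10*, *gfap* and *fabp7a*. They were chosen with earlier results of these data known, so shares of all genes beside their counts are a description and not a test. Each symbol matched 1 of the 30097 genes in the expression table, and all 9 were among the 25387 genes tested, which reached 1 TPM (a length-scaled share of all transcripts) in every sample of at least 1 group.

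RNA came from whole bodies of AB strain larvae, with 3 samples in each of 18 groups and 54 samples in all. Every group was raised at 28 °C to 96 hpf (hours post fertilization), when the cold began. The er_ab group held abnormal survivors, which had lost their equilibrium or could not swim normally after 24 h at 10 °C and 24 h back at 28 °C, and the er_nor group held normally swimming survivors of the same treatment; both had an age of 144 hpf. The re groups had 12 h at 10 °C and then 1, 2, 6, 12 or 24 h at 28 °C. The lc groups were collected directly after 1, 2, 6, 12 or 24 h at 10 °C. The ctrl groups stayed at 28 °C and were collected at 96, 97, 98, 102, 108 and 132 hpf. No untreated group had the age of lc_24 h (120 hpf) or of the survivors. Survivors were sorted by how they looked and swam, so er_ab and er_nor differ in condition, not in treatment.

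Myelin is the lipid-rich sheath that oligodendrocytes wrap around axons in the brain and spinal cord and that Schwann cells wrap around axons in peripheral nerves. It is held together by a few abundant proteins, and in zebrafish larvae of the ages studied here it is still being laid down. Radial glia line the ventricles of the fish brain, act as neural progenitors and take on many tasks that astrocytes perform in mammals. Of the 9 genes, *mbpa* encodes myelin basic protein, which compacts the sheath. The adhesion protein of the sheath is encoded by *mpz*, which fish use in central as well as peripheral myelin, and a claudin of myelinating glia by *cldnk*. Proteolipid protein, a membrane-spanning myelin protein, is encoded by the duplicates *plp1a* and *plp1b*. The transcription factor gene *olig2* acts in precursors of oligodendrocytes and motor neurons. The transcription factor gene *sox10* acts in oligodendrocytes, Schwann cells and other derivatives of the neural crest, pigment cells among them. The intermediate filament gene *gfap* and *fabp7a*, for the brain fatty acid-binding protein, are genes of radial glia.

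All 9 genes were above 0 TPM in all 54 samples. TPM is scaled for transcript length, so levels can be set side by side: averaged over all samples, *fabp7a* stood at 1054 TPM, *gfap* at 82.0, *mbpa* at 49.8, *cldnk* at 18.9, *plp1b* at 13.3, *sox10* and *mpz* both at 11.9, *olig2* at 7.64 and *plp1a* at 5.63 TPM. The spread between replicates was small. The coefficient of variation within a group had medians from 3.06% for *gfap* to 9.41% for *cldnk*. TPM columns carry no read depth, and the read numbers that the study lists were not used here. The precision was therefore judged from the spread of samples within groups. For each gene this spread was pooled over all 18 groups and moderated by the trend over all genes, not taken from the 2 groups compared. The study speaks of biological replicates, but the labels do not say whether the 3 samples of a group came from different clutches or dishes. The p-values therefore reflect only how far samples differ within groups, and whether that takes in differences between clutches is unknown.

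**Figure D1:**
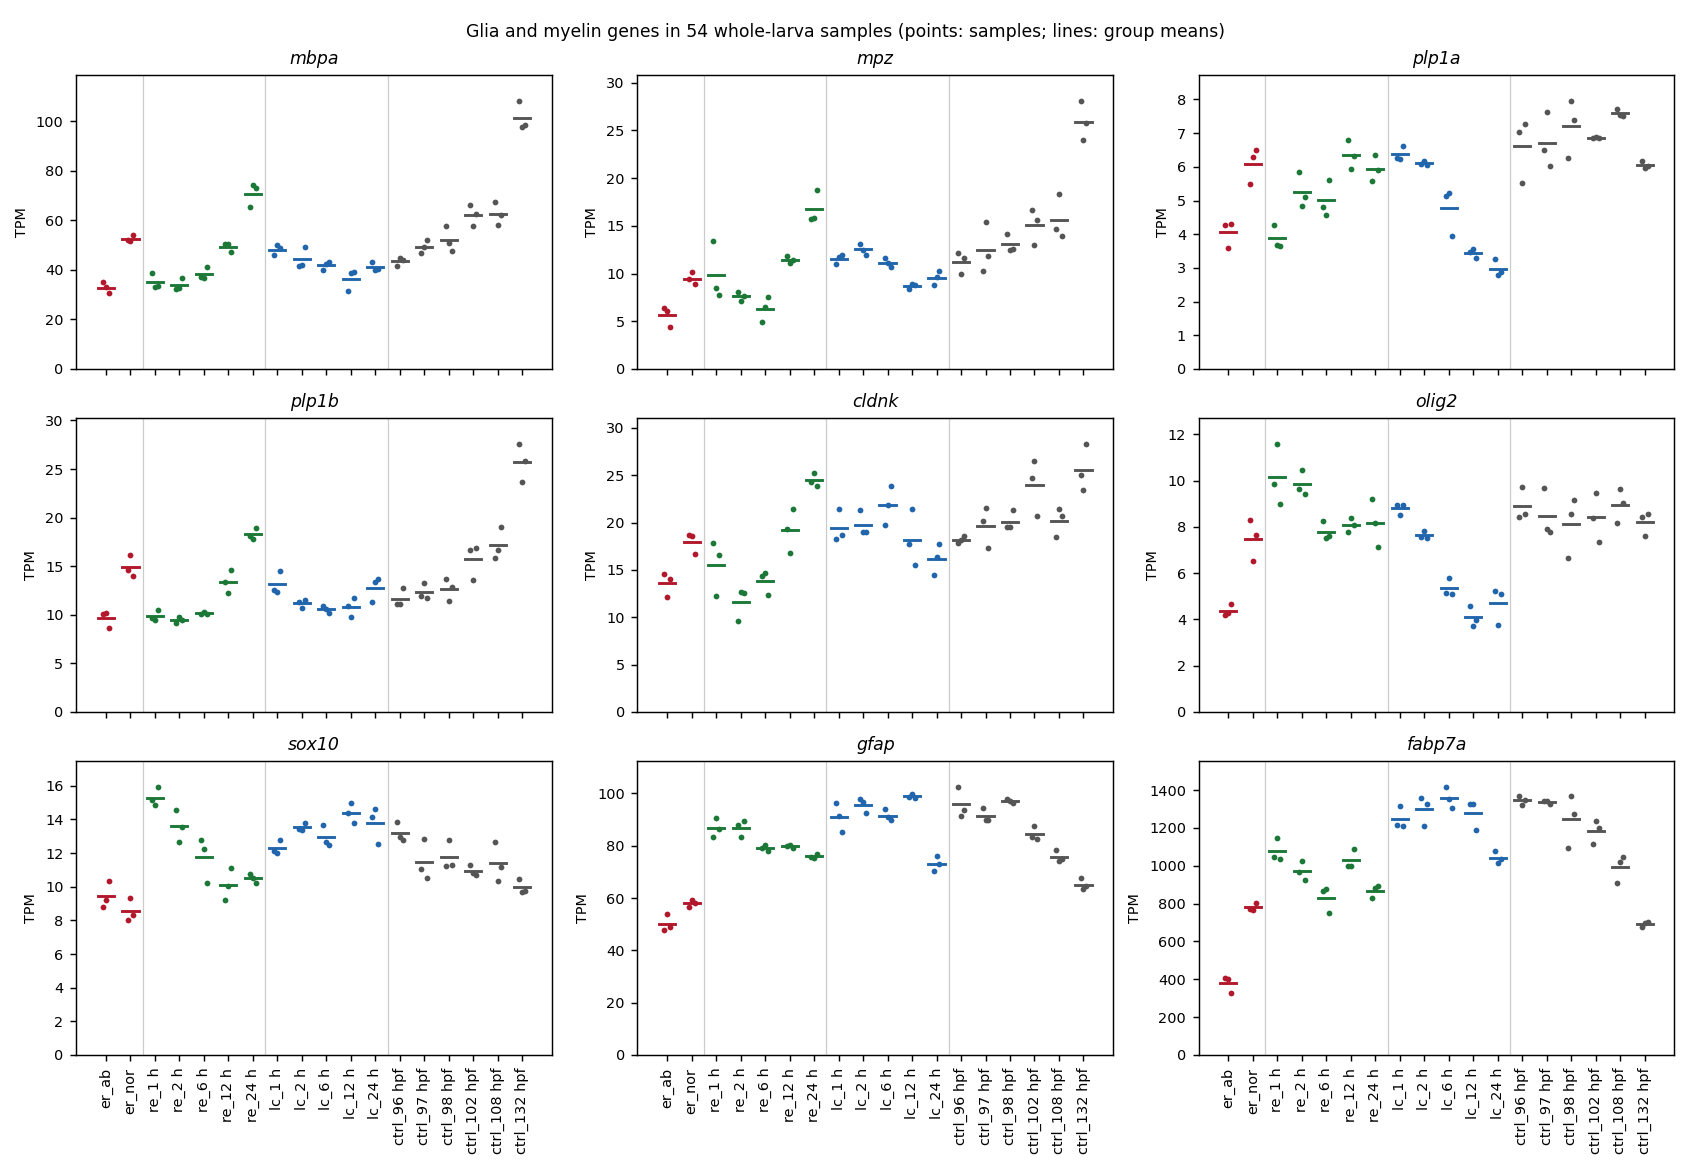
TPM (y axes, from 0) of the 9 genes in each of the 18 groups (x axis); points are samples and short lines are group means, with survivors in red, rewarmed larvae in green, larvae at 10 °C in blue and untreated larvae in grey. The er_ab group has the lowest mean of *mbpa*, *mpz*, *gfap* and *fabp7a*, and ctrl_132 hpf the highest mean of *mbpa*, *mpz*, *plp1b* and *cldnk*.

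Across the 18 group means, er_ab was the lowest group for *mbpa*, *mpz*, *gfap* and *fabp7a*, that is, for 4 of 9 genes, where 13.3% of all genes tested had their lowest mean in er_ab. The oldest untreated larvae, ctrl_132 hpf, had the highest mean of *mbpa*, *mpz*, *plp1b* and *cldnk*, against 6.95% of all genes. The whole range was 4.59-fold for *mpz*, 3.59-fold for *fabp7a* and 3.09-fold for *mbpa*, and only 1.79-fold for *sox10*. Ordered from low to high, most neighbouring groups could not be separated. For *sox10* and *cldnk* all 17 pairs of neighbours overlapped in their samples, and for *mbpa* 15 of 17 did, the 2 gaps lying between er_nor and ctrl_102 hpf and between re_24 h and ctrl_132 hpf. The order was clearest for *gfap*, where er_ab lay below er_nor, er_nor below ctrl_132 hpf and ctrl_132 hpf below lc_24 h with no overlap.

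The comparison of er_ab with er_nor asks which genes differed between abnormal and normal survivors. Whether such genes mark damage, or stay changed later, was not tested. A gene was called when limma on log2(TPM + 1) gave a change of 1.5-fold or more together with an adjusted p, taken over all genes tested, not above 0.05. In er_ab 5 of the 9 genes were lower and none was higher, where 4.74% of all genes were called lower and 5.58% higher. Since the 9 were chosen with earlier results of these data known, this contrast only describes them. The 5 were *fabp7a*, *mpz*, *mbpa*, *olig2* and *plp1b*. All 3 er_ab samples lay below all 3 er_nor samples for 8 of the 9 genes, against 23.6% of all genes, and *sox10* was the exception. For the other comparisons no such share of all genes is given, so separate samples there only describe the genes. The median log2 fold change of the 9 was -0.59, beside -0.02 over all genes. By the limma fit 0 of the 9 genes had an unadjusted p below 0.05 in the higher direction and 8 had one in the lower direction. For this looser measure no share of all genes is given. In whole larvae, fewer cells of a type and less RNA per cell cannot be told apart.

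Among the myelin genes, *mbpa* (ENSDARG00000036186) stood at 35.1, 32.96 and 30.5 TPM in er_ab, against 52.1, 51.6 and 53.9 TPM in er_nor. The groups were far apart relative to their spread. The log2 fold change was -0.66 (standard error 0.08, adjusted p = 6.62e-09). For *mpz* (ENSDARG00000038609) the er_ab samples had 6.39, 6.12 and 4.42 TPM and the er_nor samples 9.41, 10.1 and 8.90 TPM. Replicate 3 of er_ab was the lowest of all 54 samples for this gene. The log2 fold change of *mpz* was -0.67 (standard error 0.14, adjusted p = 0.000139), and it came to -0.53, short of the fold of 1.5, without replicate 3 of er_ab.

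The duplicates for proteolipid protein were both below their er_nor levels in er_ab. *plp1b* (ENSDARG00000011929) had 10.1, 10.2 and 8.63 TPM in er_ab, against 14.6, 16.2 and 14.03 TPM in er_nor, and *plp1a* (ENSDARG00000103732) had 4.29, 3.60 and 4.30 TPM in er_ab, against 5.48, 6.29 and 6.497 TPM in er_nor. Mean TPM was 4.06 in er_ab and 6.09 in er_nor for *plp1a*, and 9.63 in er_ab and 14.9 in er_nor for *plp1b*. Neither gene overlapped between the groups, and a difference between their changes was not tested. On the log2(TPM + 1) scale only *plp1b* passed the fold. Its value of -0.59 on the log2 scale (standard error 0.08, adjusted p = 3.63e-07) lay at the threshold, and the call was lost without replicate 3 of er_ab (-0.52), without replicate 2 of er_nor (-0.53) and with libraries scaled by the median of ratios (-0.57). That of *plp1a* was -0.49 (standard error 0.09, adjusted p = 3.01e-05). The claudin gene *cldnk* (ENSDARG00000042357) also missed the fold: it had 14.6, 12.2 and 14.04 TPM in er_ab and 18.7, 18.6 and 16.6 TPM in er_nor (log2 fold change -0.38, standard error 0.12, adjusted p = 0.00982).

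Of the transcription factor genes only *olig2* was called. *olig2* (ENSDARG00000040946) had 4.18, 4.28 and 4.66 TPM in er_ab, against 8.30, 6.51 and 7.67 TPM in er_nor. All er_ab samples lay well below all er_nor samples, the log2 fold change being -0.66 (standard error 0.10, adjusted p = 2.72e-06). *sox10* (ENSDARG00000077467) had 8.78, 9.19 and 10.4 TPM in er_ab and 8.03, 9.31 and 8.34 TPM in er_nor. These values overlapped, and the log2 fold change of 0.13 had a 95% interval from -0.03 to 0.28 (adjusted p = 0.202). That the change of *olig2* differs from that of *sox10* was not tested.

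The largest difference among the 9 belonged to the radial glia gene *fabp7a* (ENSDARG00000007697), with 407, 402 and 326 TPM in er_ab, against 774, 768 and 806 TPM in er_nor. The groups were far apart, with replicate 3 of er_ab the lowest of all 54 samples, and the log2 fold change was -1.05 (standard error 0.07, adjusted p = 2.12e-15). The other radial glia gene, *gfap* (ENSDARG00000025301), had 47.9, 53.8 and 48.9 TPM in er_ab, against 56.7, 59.2 and 58.1 TPM in er_nor. The groups did not overlap, yet the log2 fold change was only -0.21 (standard error 0.04, adjusted p = 0.000163), far from a fold of 1.5. The ratio of *fabp7a* to *gfap* within a sample was 8.50, 7.48 and 6.65 in er_ab, against 13.6, 12.96 and 13.9 in er_nor. The next lowest group mean of this ratio was 10.5 at re_6 h.

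**Figure D2:**
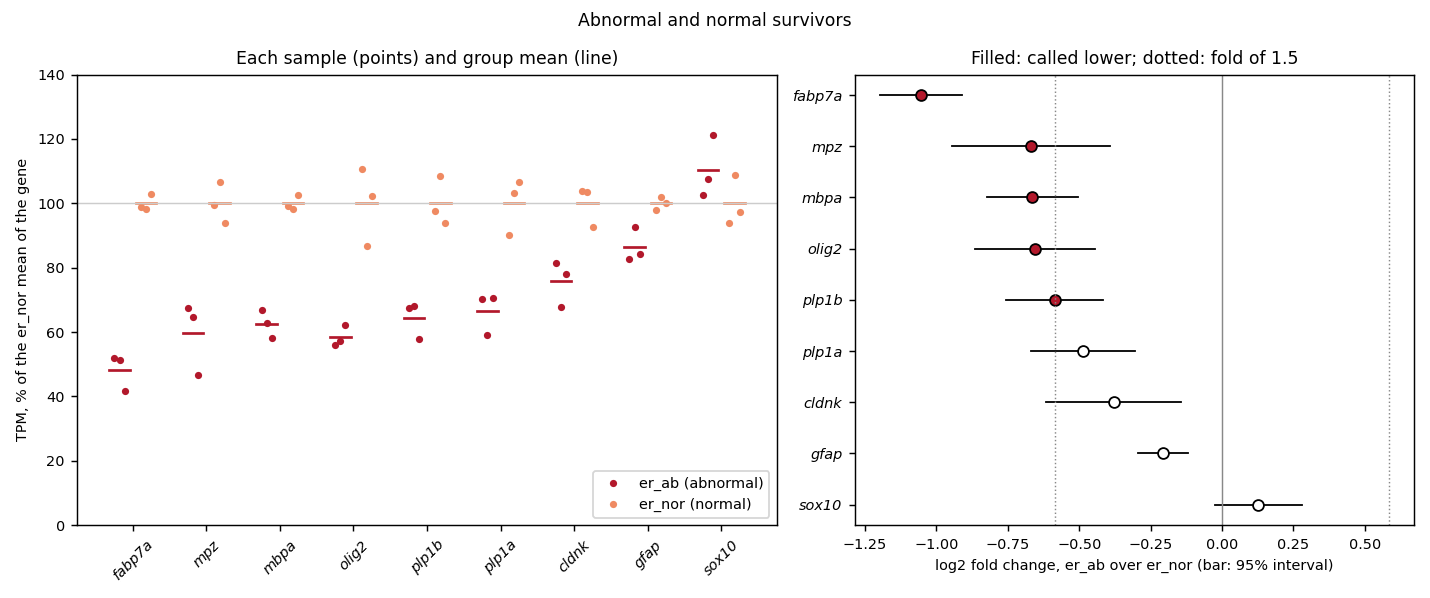
Left, TPM of the 9 genes as a percent of the er_nor mean of each gene, with er_ab in red and er_nor in orange (points: 3 samples each; lines: means); right, log2 fold changes of er_ab over er_nor with 95% intervals, filled where the gene was called lower. *fabp7a* lies farthest to the left at -1.05, 8 genes have no overlap between the groups, and *sox10* straddles 0.

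Other genes of the same cells, from lists of known markers, were less uniform. Of 20 other myelin genes tested, 3 were lower and 2 higher in er_ab, with a median log2 fold change of -0.10. Lower were *cntn1b*, for a contactin (5.56 ± 0.414 TPM in er_ab and 9.10 ± 0.360 TPM in er_nor, SD, n = 3 each), *cd59*, for a complement inhibitor found on myelinating glia in fish (23.0 ± 2.25 TPM in er_ab and 35.5 ± 2.03 TPM in er_nor), and *mag*, for a myelin-associated adhesion protein, which was named after its values were seen (13.7 ± 2.06 TPM in er_ab and 21.0 ± 1.22 TPM in er_nor). Higher were the duplicates *ndrg1b* and *ndrg1a*, which are linked to myelin maintenance in Schwann cells of mammals and are also known as stress and hypoxia genes of many tissues. *ndrg1a* stood at 139.8 ± 12.3 TPM in er_ab and 90.6 ± 5.77 TPM in er_nor. *ndrg1b* stood at 76.5 ± 10.2 TPM in er_ab and 24.0 ± 1.55 TPM in er_nor (log2 fold change 1.62, standard error 0.10, adjusted p = 8.26e-17). *pmp22a*, the most abundant gene of the list by its mean over all samples, had 136.6 ± 4.50 TPM in er_ab and 164.7 ± 12.3 TPM in er_nor and was not called.

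The duplicate of *mbpa* stood apart from it. *mbpb*, chosen for this after its values were seen, had 85.7, 84.4 and 81.3 TPM in er_ab and 90.8, 86.4 and 89.3 TPM in er_nor. The ranges were separate but close, and the log2 fold change of -0.08 (SE 0.05, adjusted p = 0.174) was not called. The ratio of *mbpa* to *mbpb* within a sample was 0.409, 0.391 and 0.375 in er_ab, against 0.574, 0.597 and 0.604 in er_nor. Salmon divides reads that match several transcripts by estimation, and how far it split reads between duplicates was not tested.

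Of 28 other genes of radial glia and astroglia, 9 were lower and 1 higher in er_ab, with a median log2 fold change of -0.27. Lower were *slc6a11b*, for a GABA transporter, at 19.0 ± 2.14 TPM in er_ab and 42.3 ± 2.34 TPM in er_nor (log2 fold change -1.12), and *slc1a3b*, for a glutamate transporter, at 17.5 ± 1.39 TPM in er_ab and 37.6 ± 3.39 TPM in er_nor (-1.06). *rlbp1a*, for a retinoid-binding protein of retinal Müller glia, was at 14.4 ± 0.232 TPM in er_ab and 28.2 ± 0.834 TPM in er_nor (-0.92), and *atp1b4* at 23.9 ± 0.792 TPM in er_ab and 42.1 ± 1.87 TPM in er_nor (-0.79). The 1 gene higher was *glula*, for a glutamine synthetase, named after its values were seen, at 295 ± 30.2 TPM in er_ab and 187.8 ± 11.1 TPM in er_nor. *id1*, the most abundant gene of this list by its mean over all samples, had 269 ± 4.61 TPM in er_ab and 297 ± 17.0 TPM in er_nor and was not called. The other 5 lower genes, named after their values were seen, were *slc1a2b*, *kcnj10a*, *her6*, *hepacama* and *aqp4*, with log2 fold changes from -1.004 to -0.67. *slc1a2b* encodes a glutamate transporter, *kcnj10a* a potassium channel and *aqp4* a water channel of astroglia.

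Of 16 other genes of the oligodendrocyte lineage, 1 was lower and none higher, with a median of -0.17; the 1 was the proneural factor gene *ascl1b* (3.76 ± 0.0621 TPM in er_ab and 6.67 ± 0.134 TPM in er_nor, log2 fold change -0.69). *tcf7l2*, the most abundant of them over all samples, was at 43.1 ± 3.89 TPM in er_ab and 48.1 ± 1.36 TPM in er_nor and was not called. Of 12 genes of Schwann cells and neural crest, none was lower and 1 higher, with a median of -0.07. It was *egr2a*, a zebrafish relative of the Schwann cell factor gene Egr2 of mice, at 1.497 ± 0.325 TPM in er_ab and 0.652 ± 0.199 TPM in er_nor. These levels are near 1 TPM, and the log2 fold change of 0.595 was just over the fold. The other such relative on the list, *egr2b*, named after its values were seen, was at 2.27 ± 0.332 TPM in er_ab and 2.44 ± 0.223 TPM in er_nor. Its samples overlapped and it was not called. *tfap2a*, a neural crest factor gene, was at 54.6 ± 2.58 TPM in er_ab and 58.3 ± 4.99 TPM in er_nor and was not called. Counts of 0 or 1 in lists of this size are near the shares of all genes, 4.74% lower and 5.58% higher. The counts rest on the log2(TPM + 1) scale, which understates the change of low genes, and were not repeated with other pseudocounts. Uncalled genes differed too. Of the 16 lineage genes 10 had log2 fold changes below 0 and 6 above. For the 12 Schwann cell and crest genes these were 7 and 5. All er_ab samples lay below er_nor, as for 23.6% of all genes, for *olig1* (-0.54), *sox6* (-0.54), *gpr17* (-0.52), *nkx2.2a* (-0.51), *adgrg6* (-0.56) and *pou3f1* (-0.50), among others. They lay above for *pdgfra* (0.47) and *erbb3b* (0.30), among others. Mean TPM in er_ab over that in er_nor was 0.488 for *olig1*, 0.627 for *gpr17*, 0.659 for *nkx2.2a* and 0.664 for *sox6*. It was 0.664 for *adgrg6*, 0.692 for *pou3f1*, 1.41 for *pdgfra* and 1.26 for *erbb3b*. These names were chosen after their values were seen.

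Markers of other cells of the same larvae were read against the same 4.74% and 5.58%. Of 24 neuron genes 3 were lower and none higher (median -0.30): the neurofilament genes *nefmb* and *nefla* and the tubulin gene *tubb5*, which was at 77.5 ± 6.45 TPM in er_ab and 120.9 ± 4.01 TPM in er_nor. The log2 fold change of *nefmb* (-0.585) lay at the threshold. Called or not, 19 of the 24 neuron genes had log2 fold changes below 0 and 5 above. The summed level of the neuron list ran from 1218 to 1260 TPM in er_ab and from 1436 to 1494 TPM in er_nor. Of 14 pigment cell genes 4 were lower and 1 higher (median -0.31), and the list summed to between 146 and 164 TPM in er_ab and between 207 and 249.96 TPM in er_nor. *gch2*, of pteridine pigment synthesis, was at 14.7 ± 0.629 TPM in er_ab and 30.6 ± 4.11 TPM in er_nor. Also lower were *pnp4a* (14.5 ± 2.32 TPM in er_ab and 25.5 ± 0.956 TPM in er_nor) and *tyrp1b* (37.3 ± 2.18 TPM in er_ab and 63.1 ± 7.16 TPM in er_nor). *tyrp1b* was the most abundant gene of this list by its mean over all samples. The 1 gene higher was *ltk* (7.99 ± 0.650 TPM in er_ab and 4.76 ± 0.253 TPM in er_nor). The microglia and macrophage list had 1 of 17 genes higher, the scavenger receptor gene *marco* (12.0 ± 0.425 TPM in er_ab and 6.74 ± 0.120 TPM in er_nor), and 1 lower, *havcr1* (5.17 ± 0.726 TPM in er_ab and 8.53 ± 0.602 TPM in er_nor), again near the shares of all genes. Its 18 genes in the table summed to 2293 to 2352 TPM in er_ab and 1716 to 1865 TPM in er_nor, most of it *apoeb*, which is also a gene of the yolk syncytial layer and stood at 2103 ± 36.4 TPM in er_ab and 1591 ± 75.5 TPM in er_nor. None of the listed genes was at 0 in any survivor sample. The part of these other cells in the differences of the 9 genes was not tested.

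**Figure D3:**
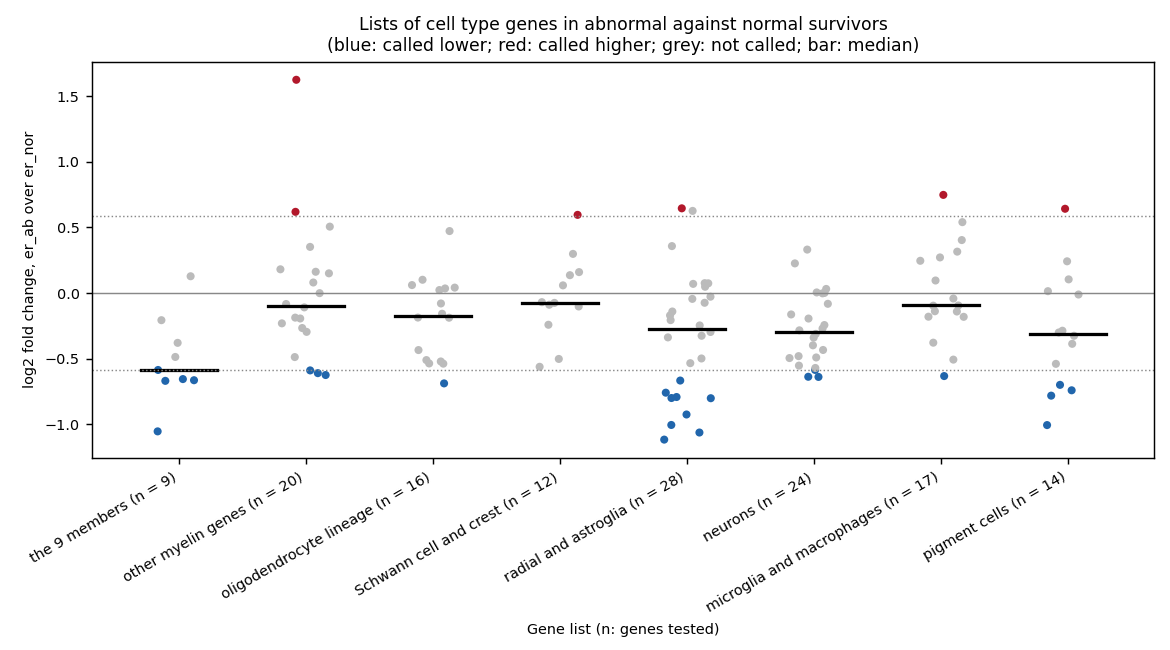
Log2 fold changes of er_ab over er_nor (y axis) for the 9 genes and for 7 lists of cell type genes (x axis); each point is a gene, blue if called lower, red if called higher and grey if not called, and bars are medians. The 9 genes have a median of -0.59, against -0.10 for the other myelin genes and -0.27 for radial and astroglia, and *ndrg1b* is the red point at 1.62.

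Untreated development gives the scale for these differences. At ctrl_132 hpf 3 of the 9 genes were higher than at ctrl_96 hpf (4.13% of all genes) and 1 was lower (8.28%). Of all genes called here 33.3% were higher, and 48.1% with libraries scaled by the median of ratios. *mbpa* had 108, 97.5 and 98.4 TPM at 132 hpf, against 41.6, 44.96 and 44.1 TPM at 96 hpf (log2 fold change 1.198, standard error 0.08, adjusted p = 4.99e-16). *mpz* had 28.0, 23.9 and 25.7 TPM at 132 hpf, against 12.1, 9.99 and 11.6 TPM at 96 hpf (log2 fold change 1.14, standard error 0.14, adjusted p = 5.52e-09). *plp1b* had 27.5, 23.7 and 25.8 TPM at 132 hpf, against 11.1, 11.1 and 12.7 TPM at 96 hpf (log2 fold change 1.08, standard error 0.08, adjusted p = 6.44e-14). For none of these myelin genes did the samples of the 2 ages overlap, a property whose share of all genes is not given here. In contrast *plp1a*, the duplicate of *plp1b*, was at 6.05 ± 0.112 TPM at 132 hpf and 6.61 ± 0.961 TPM at 96 hpf, and its values overlapped. The radial glia gene *fabp7a* fell to 677, 699 and 701 TPM at 132 hpf, against 1371, 1322 and 1349 TPM at 96 hpf (log2 fold change -0.96, standard error 0.07, adjusted p = 1.54e-14). *gfap* had 65.2 ± 2.07 TPM at 132 hpf and 95.8 ± 5.78 TPM at 96 hpf, a log2 fold change of -0.55 that stayed under the fold of 1.5. *cldnk*, at 0.47, was also under it, and was called higher with quantile normalization (0.65).

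At 97, 98, 102 and 108 hpf the limma fit called none of the 9 genes against 96 hpf. Among all genes 0.24%, 0.205%, 1.37% and 2.5% were called at the 4 ages. An unadjusted p below 0.05, a looser measure for which no share of all genes is given, was found for 2, 2, 7 and 7 of the 9. At 102 and at 108 hpf 4 of these were higher and 3 lower. *mbpa* was at 62.6 ± 4.72 TPM by 108 hpf, between its levels at 96 and 132 hpf. Of the other myelin genes 5 of 20 were higher at 132 hpf and 1 was lower, and of the 28 genes of radial and astroglia 2 were higher and 1 lower. Over all genes 4.13% were higher and 8.28% lower at 132 hpf.

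Cold exposure was compared with ctrl_96 hpf, the larvae as they entered the cold, and with untreated larvae of the same age. Against ctrl_96 hpf the limma fit called no gene of the 9 after 1 or 2 h, where 0.284% and 0.748% of all genes were called, and 0 had an unadjusted p below 0.05 at either time. After 6 h *olig2* alone was called, lower, where 2.19% of all genes were lower. After 12 h and after 24 h *olig2* and *plp1a* were called, both lower, where 9.54% and 24.3% of all genes were lower. The median log2 fold change of all genes was itself -0.13 at 12 h and -0.23 at 24 h. Of all genes called, 54.8%, 36.8% and 27.7% were higher at 6, 12 and 24 h, and 71.5%, 58.3% and 52.6% with libraries scaled by the median of ratios.

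*olig2* had 8.44, 9.74 and 8.58 TPM in ctrl_96 hpf, 8.94, 8.50 and 8.95 TPM after 1 h, 7.57, 7.82 and 7.50 TPM after 2 h and 5.12, 5.79 and 5.11 TPM after 6 h. It had 4.58, 3.71 and 3.98 TPM after 12 h and 5.22, 3.77 and 5.08 TPM after 24 h. From 2 h on every cold sample lay below every ctrl_96 hpf sample. The log2 fold changes were -0.64 at 6 h (standard error 0.10, adjusted p = 8.07e-06), -0.96 at 12 h (adjusted p = 5.28e-10) and -0.81 at 24 h (adjusted p = 1.15e-08). With libraries scaled by the median of ratios the values at 6 and 24 h came to -0.56 and -0.57, and with quantile normalization to -0.57 and -0.56, in each case just under the fold of 1.5.

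*plp1a* had 3.48, 3.57 and 3.30 TPM after 12 h and 3.26, 2.79 and 2.87 TPM after 24 h, against 7.05, 5.51 and 7.28 TPM in ctrl_96 hpf. Its means were 6.37 TPM after 1 h, 6.11 TPM after 2 h and 4.77 TPM after 6 h, so the mean was lower at each later time. The log2 fold changes were -0.77 at 12 h (standard error 0.09, adjusted p = 3.3e-09) and -0.93 at 24 h (adjusted p = 9.36e-12). The duplicate *plp1b* did not follow, with 12.8 ± 1.26 TPM after 24 h and 11.6 ± 0.935 TPM in ctrl_96 hpf (log2 fold change 0.13, 95% interval -0.04 to 0.29). Within a sample *plp1b* over *plp1a* was 3.49, 4.78 and 4.76 at lc_24 h, against 1.57, 2.02 and 1.75 in ctrl_96 hpf. A ratio as high, 4.24 ± 0.245, was found in untreated larvae of 132 hpf, where *plp1b* was higher and *plp1a* near its level at 96 hpf.

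Of the other genes, none was called. At lc_24 h *mbpa* was at 41.2 ± 1.69 TPM, against 43.6 ± 1.77 TPM in ctrl_96 hpf, and *mpz* at 9.55 ± 0.717 TPM, against 11.2 ± 1.103 TPM in ctrl_96 hpf. *sox10* was at 13.8 ± 1.09 TPM at lc_24 h, against 13.2 ± 0.588 TPM in ctrl_96 hpf. These 3 overlapped between the groups. *gfap* (73.2 ± 3.04 TPM at lc_24 h, against 95.8 ± 5.78 TPM in ctrl_96 hpf) and *fabp7a* (1043 ± 32.6 TPM at lc_24 h, against 1347 ± 24.5 TPM in ctrl_96 hpf) did not overlap, with log2 fold changes of -0.38 and -0.37 that missed the fold. *cldnk* was also separate, at 16.2 ± 1.66 TPM at lc_24 h against 18.2 ± 0.404 TPM in ctrl_96 hpf, with an adjusted p of 0.219. Between one cold time and the next the limma fit called none of the 9 genes. Among all genes 0.177%, 2.36%, 3.06% and 9.18% were called at the 4 steps from 1 to 24 h. An unadjusted p below 0.05, a looser measure for which no share of all genes is given, was found for 1, 2, 6 and 4 of the 9.

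Against untreated larvae of the same age more of the genes were called. At lc_12 h 5 of the 9 genes were lower than at ctrl_108 hpf and none was higher, where 14.1% of all genes were lower and 5.77% higher, and the median of all genes was -0.16. Of all genes called 29.0% were higher, and 51.7% with the median of ratios. *mbpa* had 31.7, 38.6 and 39.3 TPM at lc_12 h, against 67.5, 58.0 and 62.3 TPM at ctrl_108 hpf (log2 fold change -0.77, standard error 0.08, adjusted p = 1.09e-10). *mpz* had 8.42, 8.91 and 8.76 TPM at lc_12 h, against 14.6, 18.3 and 13.9 TPM at ctrl_108 hpf (-0.77, standard error 0.14, adjusted p = 1.05e-05). *plp1b* had 10.9, 9.74 and 11.7 TPM at lc_12 h, against 15.8, 16.7 and 19.0 TPM at ctrl_108 hpf (-0.63, standard error 0.08, adjusted p = 5.31e-08). All 3 of these myelin genes were separate between cold and control samples, a property whose share of all genes is not given here. The cold samples lay within or below the range of the ctrl_96 hpf samples and the untreated samples of 108 hpf above it.

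The call of *plp1b* at lc_12 h was lost without replicate 2 of lc_12 h (-0.56), without replicate 3 of ctrl_108 hpf (-0.55) and under both other scalings (-0.44 with the median of ratios, -0.50 with quantiles). That of *mbpa* was lost with the median of ratios (-0.57). *plp1a* and *olig2* were called too, with log2 fold changes of -0.95 and -0.97. In the other direction *sox10* (14.4 ± 0.595 TPM at lc_12 h and 11.4 ± 1.16 TPM at ctrl_108 hpf), *gfap* (98.9 ± 0.773 TPM at lc_12 h and 75.7 ± 2.35 TPM at ctrl_108 hpf) and *fabp7a* (1282 ± 77.8 TPM at lc_12 h and 994 ± 72.8 TPM at ctrl_108 hpf) lay above their controls in all 3 samples, with log2 fold changes of 0.32, 0.38 and 0.37, under the fold. In untreated larvae all samples of *gfap* and *fabp7a* at 108 hpf lay below those at 96 hpf. At lc_1 h, lc_2 h and lc_6 h limma called no gene of the 9 against the control of the same age. Among all genes it called 0.571%, 1.14% and 7%. An unadjusted p below 0.05, a looser measure for which no share of all genes is given, was found for 0, 3 and 8 of the 9. These counts cannot be set beside the shares of genes called. At lc_6 h *olig2* was called with a pseudocount of 0.1 (-0.64) or 0.5 (-0.60).

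The same comparison at 12 h called 1 of 20 other myelin genes lower (*ndrg1a*) and none higher, 5 of 16 genes of the oligodendrocyte lineage lower and none higher, and 8 of 28 genes of radial and astroglia lower and 1 higher. The lineage genes were *ascl1b*, *ascl1a*, *gpr17*, *tcf7l2* and *nkx6.1*, named after their values were seen. *gpr17*, for a receptor of oligodendrocyte precursors, was at 1.78 TPM at lc_12 h and 4.597 TPM at ctrl_108 hpf, a log2 fold change of -1.005. Of 12 genes of Schwann cells and neural crest 5 were lower and 1 higher, and of 17 genes of microglia and macrophages 4 were lower and none higher. Among 14 pigment cell genes 2 were lower and 2 higher, and among 24 neuron genes 1 was lower and none higher. Over all genes 14.1% were lower and 5.77% higher in this comparison.

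**Figure D4:**
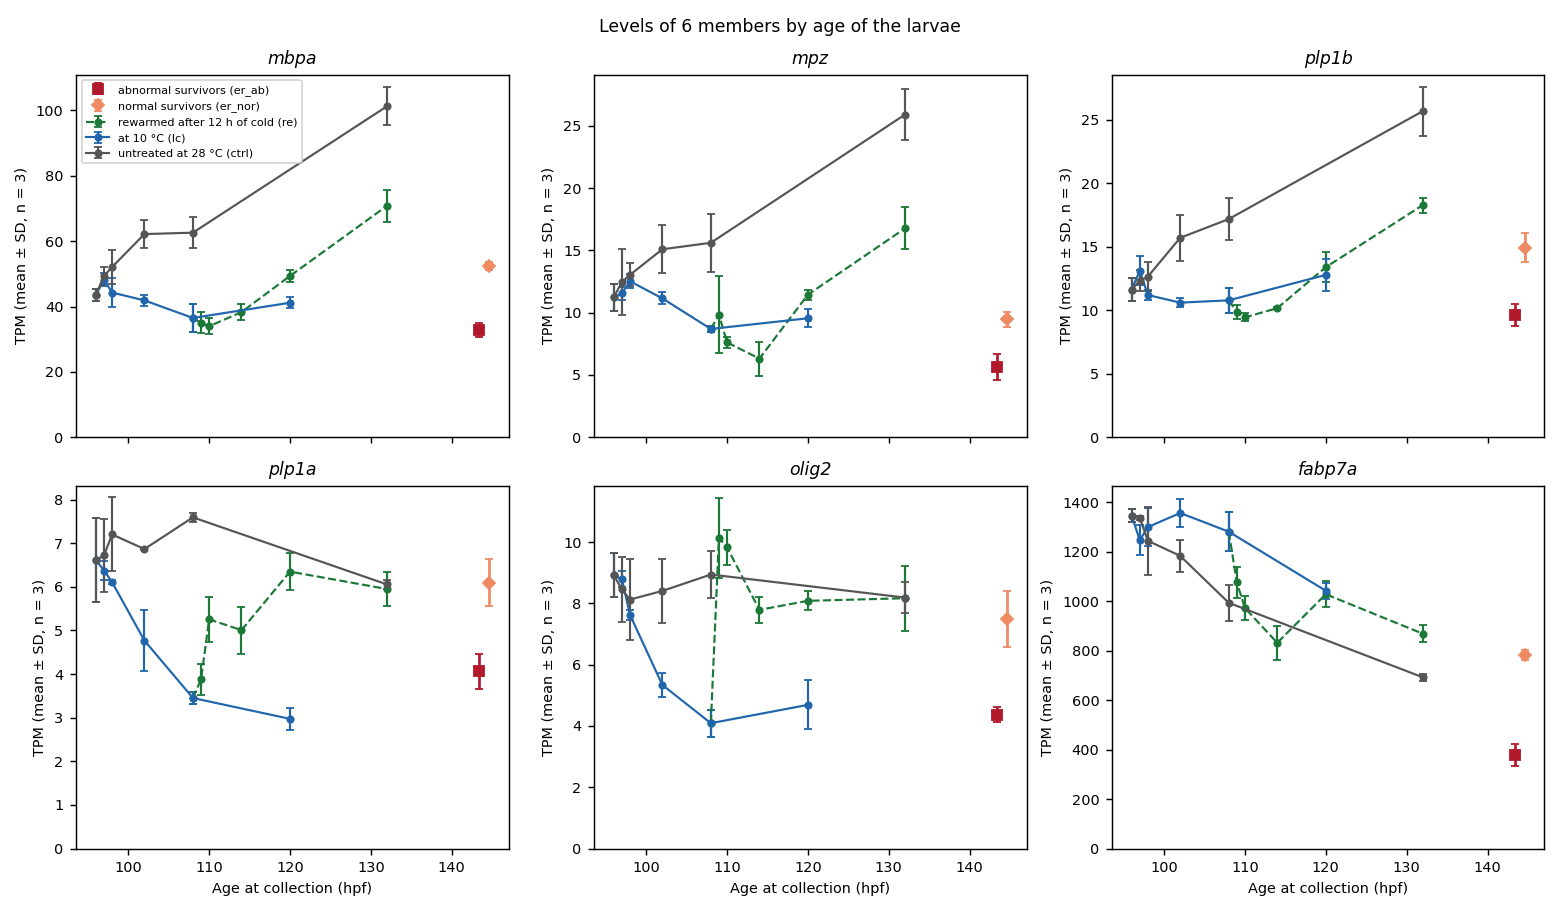
Mean TPM ± SD (y axes, from 0, n = 3) of 6 of the genes by age at collection (x axis, hpf); untreated larvae are grey, larvae at 10 °C blue, larvae rewarmed after 12 h of cold green and dashed, and survivors squares (er_ab) and diamonds (er_nor), set slightly apart around 144 hpf. *mbpa*, *mpz* and *plp1b* are highest in untreated larvae of 132 hpf, *olig2* has its highest mean after 1 h of rewarming, and er_ab lies below er_nor in all 6 panels.

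Rewarming was compared with lc_12 h, its starting point. Every re group was older than lc_12 h, so age and rewarming differ together in these comparisons. The first gene to be called was *olig2*, with 9.86, 11.6 and 9.00 TPM at re_1 h, against 4.58, 3.71 and 3.98 TPM at lc_12 h. All 3 samples lay far above those of lc_12 h. The mean at re_1 h was the highest of the gene among the 18 groups, but its samples overlapped with those of ctrl_96 hpf (8.44, 9.74 and 8.58 TPM). Against lc_12 h the log2 fold change was 1.13 (limma, standard error 0.10, adjusted p = 7.43e-12), where 12.3% of all genes were higher. *olig2* was called higher at each later time also, with log2 fold changes of 1.09 at 2 h, 0.79 at 6 h, 0.84 at 12 h and 0.85 at 24 h, where 14.1%, 16.6%, 15.8% and 13% of all genes were higher; only the call at 6 h was lost in any alternative, with quantile normalization (0.58). Its relative *olig1*, chosen after its values were seen, had 0.180, 0.439 and 0.386 TPM at re_1 h, against 0.853, 0.871 and 1.12 TPM at lc_12 h. All 3 samples were lower, in the opposite direction to *olig2*, at levels near or below 1 TPM (log2 fold change -0.55, standard error 0.10), and the fold of 1.5 was not reached on the log2(TPM + 1) scale.

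At re_1 h, re_2 h and re_6 h none of *mbpa*, *mpz*, *plp1a* and *plp1b* was called against lc_12 h. The value of *plp1a* at re_2 h was 0.49, and 0.59 with a pseudocount of 0.1, where it was called higher. *mbpa* stood at 36.5 ± 4.19 TPM at lc_12 h and at 35.0 ± 3.19, 33.99 ± 2.51 and 38.3 ± 2.38 TPM at these times. At re_12 h *plp1a* was higher, with 6.78, 5.93 and 6.33 TPM, against 3.48, 3.57 and 3.30 TPM at lc_12 h (log2 fold change 0.72, standard error 0.09, adjusted p = 9.78e-09; 0.54 with the median of ratios and 0.50 with quantiles, both under the fold). It was back within the range of the ctrl_96 hpf samples.

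At re_24 h 5 of the 9 genes were higher than at lc_12 h and none was lower, where 13% of all genes were higher and 7.15% lower. Over the 5 rewarming times between 64.5% and 76.0% of all genes called were higher, and between 50.5% and 61.3% with the median of ratios. *mbpa* had 65.3, 74.2 and 73.0 TPM at re_24 h, against 31.7, 38.6 and 39.3 TPM at lc_12 h (log2 fold change 0.94, standard error 0.08, adjusted p = 4.23e-13). *mpz* had 15.7, 15.9 and 18.7 TPM at re_24 h, against 8.42, 8.91 and 8.76 TPM at lc_12 h (0.87, standard error 0.14, adjusted p = 1.22e-06). *plp1b* had 18.1, 17.8 and 18.9 TPM at re_24 h, against 10.9, 9.74 and 11.7 TPM at lc_12 h (0.71, standard error 0.08, adjusted p = 2.61e-09). None of these 3 myelin genes overlapped with lc_12 h, a property whose share of all genes is not given here. *plp1a* (0.64) and *olig2* (0.85) were the others, and the call of *plp1a* was lost under both other scalings (0.56 and 0.51). *fabp7a*, at -0.56, was just under the fold, and was called lower with the median of ratios (-0.67) and without replicate 3 of lc_12 h (-0.61). Of the other myelin genes 1 of 20 was higher, *ndrg1a*, and of the lineage genes 4 of 16, namely *ascl1a*, *ascl1b*, *gpr17* and *tcf7l2*, each of which had been lower at lc_12 h than at ctrl_108 hpf. These were named after their values were seen, and both comparisons share the lc_12 h samples. Of 28 genes of radial and astroglia 7 were higher and 1 lower at re_24 h. For 12 genes of Schwann cells and neural crest the counts were 5 and 1. Among 17 genes of microglia and macrophages 9 were higher and none lower. Of 14 pigment cell genes 1 was higher and 1 lower, and of 24 neuron genes none was called. In untreated larvae *mbpa* was at 62.6 TPM at 108 hpf and 101.3 TPM at 132 hpf. *mpz* was at 15.6 and 25.9 TPM at these ages, and *plp1b* at 17.2 and 25.7 TPM. The parts of age and rewarming in the higher levels at re_24 h were not tested.

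Genes also fell during rewarming. *cldnk* had 9.64, 12.7 and 12.6 TPM at re_2 h, against 17.7, 21.4 and 15.5 TPM at lc_12 h, and re_2 h was its lowest group (log2 fold change -0.60, standard error 0.12, adjusted p = 3.73e-05, where 6.55% of all genes were lower). The call rested on single samples, since the value was -0.48 without replicate 1 of re_2 h and -0.49 without replicate 2 of lc_12 h. *fabp7a* had 868, 876 and 753 TPM at re_6 h, against 1326, 1327 and 1192 TPM at lc_12 h (log2 fold change -0.62, standard error 0.07, adjusted p = 1.2e-09, where 5.24% of all genes were lower), and -0.55 without replicate 3 of re_6 h and -0.53 with quantile normalization, short of the fold. *sox10* had its highest mean at re_1 h (15.3 ± 0.553 TPM), was at 10.1 ± 0.936 TPM at re_12 h, and was not called at any time against 14.4 ± 0.595 TPM at lc_12 h. With the other scalings *sox10* was called lower at re_12 h (-0.67 and -0.63) and *mpz* lower at re_6 h (-0.61 and -0.62).

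Between one rewarming time and the next 1 gene was called, *mpz*, which had 11.9, 11.1 and 11.4 TPM at re_12 h, against 4.87, 6.48 and 7.59 TPM at re_6 h. Each sample of re_6 h was below every sample of lc_12 h. The log2 fold change of re_12 h over re_6 h was 0.78 (standard error 0.14, adjusted p = 7.31e-05), where 0.914% of all genes were higher. At the other 3 steps limma called none of the 9, where 6.4%, 8.33% and 2.54% of all genes were called. An unadjusted p below 0.05, a looser measure for which no share of all genes is given, was found for 5 of the 9 at each step.

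The re_24 h and ctrl_132 hpf groups shared their age. Of the 9 genes 1 was lower at re_24 h and none higher, where 1.34% of all genes were lower and 4.75% higher. This was *mpz*, with 15.7, 15.9 and 18.7 TPM at re_24 h, against 28.0, 23.9 and 25.7 TPM at ctrl_132 hpf (log2 fold change -0.60, standard error 0.14, adjusted p = 0.000759). The call was lost without replicate 1 of ctrl_132 hpf (-0.54) and without replicate 1 or replicate 2 of re_24 h (-0.56 each). *mbpa* (70.8 ± 4.84 TPM at re_24 h and 101.3 ± 5.87 TPM at ctrl_132 hpf, log2 fold change -0.51) and *plp1b* (18.3 ± 0.591 TPM at re_24 h and 25.7 ± 1.94 TPM at ctrl_132 hpf, -0.47) were also separate and lower in every sample, under the fold; with quantile normalization both were called (-0.67 and -0.60). *olig2*, *plp1a*, *cldnk* and *sox10* overlapped between these groups. By limma 2 of the 9, *gfap* and *fabp7a*, had an unadjusted p below 0.05 in the higher direction, at log2 fold changes of 0.22 and 0.33. In the lower direction 3 of the 9 had one, and for this looser measure no share of all genes is given.

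A second pair shared the age of 120 hpf, re_12 h and lc_24 h, with 12 h and 24 h of cold behind them. At re_12 h *plp1a* had 6.78, 5.93 and 6.33 TPM, against 3.26, 2.79 and 2.87 TPM at lc_24 h (log2 fold change 0.89, standard error 0.09, adjusted p = 3.11e-11). *olig2* had 7.79, 8.40 and 8.07 TPM at re_12 h, against 5.22, 3.77 and 5.08 TPM at lc_24 h (0.68, standard error 0.10, adjusted p = 3.43e-07). Both were separate, but 28.2% of all genes were higher and the median of all genes was 0.30. Of all genes called 78.2% were higher, and 50.7% with the median of ratios. The call of *olig2* was lost under both other scalings (0.39 and 0.38) and without replicate 2 of lc_24 h (0.56); that of *plp1a* was lost with quantiles (0.55). *sox10*, at -0.41, was not called, but was called lower under both other scalings (-0.73 with the median of ratios and -0.65 with quantiles).

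The survivors were also set against lc_24 h, the larvae at the end of the same cold. Both survivor groups (144 hpf) were also older than lc_24 h (120 hpf), and the parts of age and rewarming were not tested. Both comparisons share the lc_24 h samples, and the median of all genes was 0.21 in er_ab and 0.24 in er_nor. Of all genes called 71.8% were higher in er_ab and 75.0% in er_nor, and 50.9% and 51.6% with the median of ratios. In er_ab *fabp7a* had 407, 402 and 326 TPM, against 1079, 1015 and 1034 TPM at lc_24 h (log2 fold change -1.47, standard error 0.07, adjusted p = 1.07e-20). *mpz* had 6.39, 6.12 and 4.42 TPM in er_ab, against 8.79, 9.65 and 10.2 TPM at lc_24 h (-0.68, standard error 0.14, adjusted p = 3.75e-05; -0.54 without replicate 3 of er_ab). These 2 of 9 genes were lower and none was higher, where 10.7% of all genes were lower and 27.3% higher. By limma 1 of the 9, *plp1a*, had an unadjusted p below 0.05 in the higher direction, and 6 had one in the lower direction. For this looser measure no share of all genes is given. With the median of ratios 5 of the 9 were lower, *plp1b* (-0.62), *sox10* (-0.74) and *gfap* (-0.79) being the others, and *sox10* was called with quantiles as well (-0.70).

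In er_nor *plp1a* was higher than at lc_24 h, with 5.48, 6.29 and 6.497 TPM in er_nor, against 3.26, 2.79 and 2.87 TPM at lc_24 h (log2 fold change 0.83, standard error 0.09, adjusted p = 1.55e-10, where 25.9% of all genes were higher; 0.54 with quantile normalization). *sox10* was lower, with 8.03, 9.31 and 8.34 TPM in er_nor, against 14.1, 14.6 and 12.5 TPM at lc_24 h (-0.63, standard error 0.08, adjusted p = 2.78e-09, where 8.61% of all genes were lower; -0.58 without replicate 2 of lc_24 h). With the median of ratios *gfap* (-0.60) and *fabp7a* (-0.69) were called lower too. *olig2*, at 0.58, lay just under the fold: it was called higher with a pseudocount of 0.1 (0.67) or 0.5 (0.63), and without replicate 1 (0.65) or replicate 3 (0.63) of lc_24 h or replicate 2 of er_nor (0.67). Set side by side, *olig2* was at 4.37 ± 0.256 TPM in er_ab, 7.49 ± 0.909 TPM in er_nor and 4.69 ± 0.798 TPM at lc_24 h. The er_ab samples overlapped with lc_24 h and the er_nor samples lay above both. *fabp7a* was lower than at lc_24 h in every sample of both survivor groups, at 378 ± 45.7 TPM in er_ab, 782 ± 20.4 TPM in er_nor and 1043 ± 32.6 TPM at lc_24 h.

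**Figure D5:**
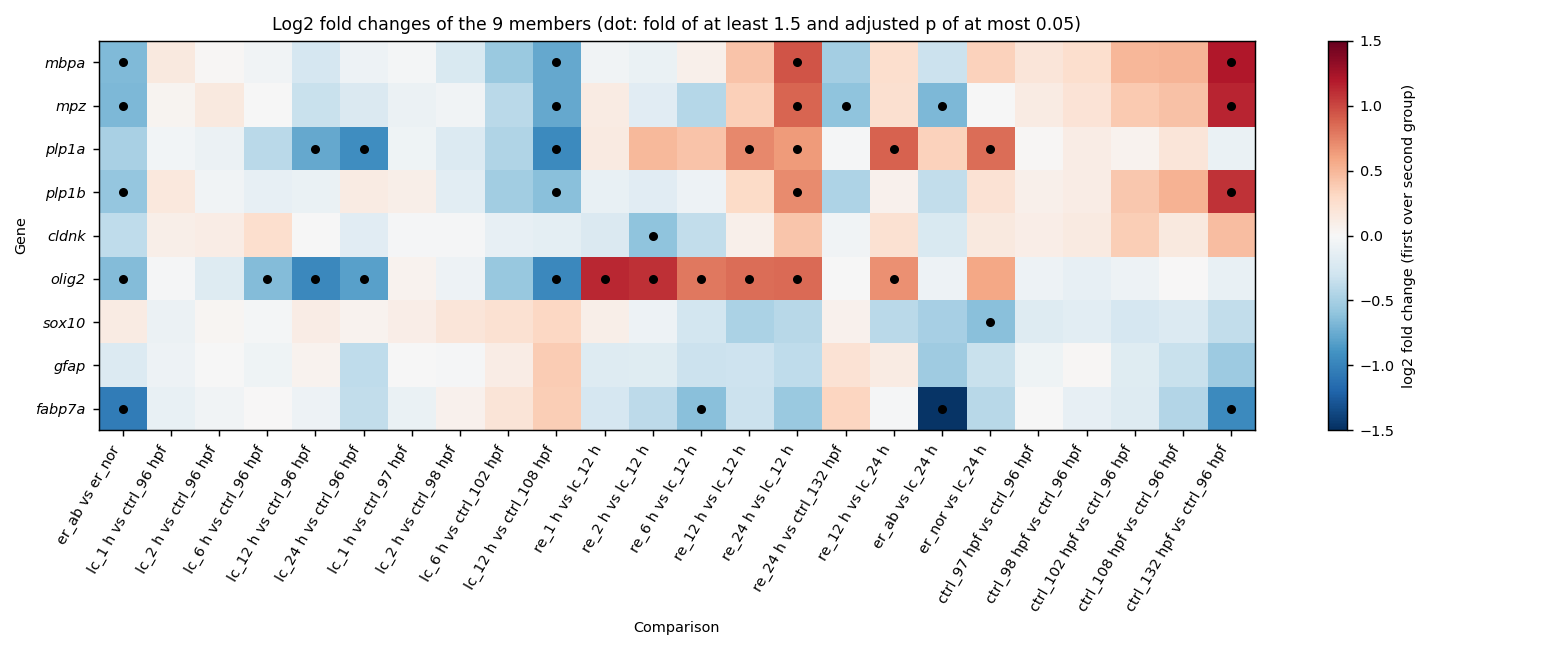
Log2 fold changes (colour, first group over second group) of the 9 genes (y axis) in 24 comparisons (x axis); black dots mark genes that were called by the criteria above. *olig2* carries the most dots, 11 in all, *gfap* carries none, and er_ab against er_nor, lc_12 h against ctrl_108 hpf and re_24 h against lc_12 h have 5 each.

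Over the 18 group means of log2(TPM + 1) the 9 genes fell into patterns, described here by Pearson's r without a test, since the groups share their processing and in part their age and treatment. *mbpa* and *plp1b* were each other's nearest among 15479 genes with a mean of at least 5 TPM, clone-named genes left aside (r = 0.9754). *cd59* ranked among the 3 nearest genes of *mbpa* (r = 0.936), *mpz* (r = 0.916) and *plp1b* (r = 0.936), and *mpz* and *mbpa* had r = 0.914. *cldnk* was nearest to *hyi* (r = 0.897) and then to *mpz* (r = 0.881). The duplicates *plp1a* and *plp1b* had only r = 0.461, and the 3 nearest genes of *plp1a* were *ndufaf1*, *prph2a* and *hnrnpdl* (r from 0.948 to 0.949).

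The radial glia genes *gfap* and *fabp7a* had r = 0.920 with each other. The 3 genes nearest to *gfap* were *hsf4*, *casp2* and *neto2b* (r from 0.974 to 0.977), and those nearest to *fabp7a* were *cd99l2*, *h2afvb* and *slc37a4b* (r from 0.978 to 0.987). For *olig2* they were *atp6v0a1b*, *pou3f1* and *scrt1b* (r from 0.955 to 0.964); *pou3f1* is itself on the list of Schwann cell genes. For *sox10* they were *ewsr1b*, *calm1a* and *cx43.4* (r from 0.901 to 0.920), and *osr2*, *aldh6a1* and *fth1b* completed the sets of *mbpa*, *plp1b*, and *mpz* with *cldnk*. *olig2* had r = 0.333 with *mbpa* and r = -0.01 with *sox10*.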

How the data were processed

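Whole larvae were profiled by RNA-seq in 54 samples. According to the study's methods, the authors estimated transcript abundance with Salmon 0.13.1 against the Ensembl zebrafish transcripts and summed it to genes with tximport. The deposited values are TPM, a unit scaled for transcript length and library total in which each column sums to 998493 to 999530. Counts and depth were not used here, and a change in abundant genes shifts the TPM of others.

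Genes with at least 1 TPM in all samples of at least 1 group were tested (25387 of 30097). Values were analysed as log2(TPM + 1) with limma 3.58.1 in R 4.3.3, using a mean-variance trend and 1 mean for each of the 18 groups (36 residual degrees of freedom), in 32 comparisons. limma took the place of a count model because the table holds TPM. Genes were called at a fold of at least 1.5 on this scale, which understates the change of low genes, with a p, adjusted by Benjamini-Hochberg over all genes tested, not above 0.05. The script was tested on simulated data.

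The 9 genes and the lists of cell type genes were chosen with earlier results of these data known. From each list the text names up to 4 genes called between the survivors with the smallest adjusted p and the most abundant gene, and for each of the 9 genes the 3 most similar genes; other names were chosen after their values were seen. Alternatives were pseudocounts of 0.1 and 0.5, no filter and a filter at 5 TPM, scaling by the median of ratios, quantile normalization, fits of only the 2 groups compared, a replicate block and leaving out each replicate. Gene by gene they were followed for the 9 genes only. Calls of list genes, such as those of *mag* and *nefmb* close to the fold, were not checked in this way. No sequences are shown.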

Additional observations from a re-analysis of the deposited data

Results flagged for a closer look

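The level of *mpz* during rewarming differed between successive times by the test of that difference. It had 11.9, 11.1 and 11.4 TPM at re_12 h, against 4.87, 6.48 and 7.59 TPM at re_6 h, and the log2 fold change was 0.78 (limma, adjusted p = 7.31e-05). All 3 samples of re_12 h lay above all 3 of re_6 h.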

How the results depend on the processing

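No log2 fold change that was called turned its sign under any alternative. Of 288 results for single genes, all 288 kept their side of the threshold with a filter at 5 TPM, without a filter, in fits of only the 2 groups compared and with the replicate block; 285 did with a pseudocount of 0.1, 286 with 0.5, 269 with the median of ratios and 269 with quantile normalization. The number of the 9 genes called was 1 in place of 0 at lc_6 h against ctrl_102 hpf with either pseudocount. It was 3 in place of 2 in er_nor against lc_24 h with either pseudocount, and at re_2 h against lc_12 h with 0.1. With the median of ratios it was 0 at lc_6 h and 1 at lc_24 h against ctrl_96 hpf (1 and 2 before), 3 at lc_12 h against ctrl_108 hpf (5), 5 in er_ab and 4 in er_nor against lc_24 h (2 and 2) and 2 at re_24 h against re_12 h (0), as well as 4 in er_ab against er_nor (5) and 3 at re_6 h against lc_12 h (2). With quantile normalization it was 0 at lc_6 h and 1 at lc_24 h against ctrl_96 hpf, 1 at re_6 h against lc_12 h (2), 3 at re_24 h against ctrl_132 hpf (1), 1 at re_12 h against lc_24 h (2), 1 in er_nor against lc_24 h (2) and 2 at re_24 h against re_12 h (0), as well as 3 in er_ab against lc_24 h (2), 5 at ctrl_132 hpf against ctrl_96 hpf (4), 4 at lc_12 h against ctrl_108 hpf (5) and 4 at re_24 h against lc_12 h (5). Some counts hide exchanges. With quantile normalization *mpz*, lower, replaced *olig2* and *fabp7a* at re_6 h. In the same setting *sox10*, lower, replaced *plp1a* and *olig2* at re_12 h against lc_24 h. With both scalings *sox10*, lower, replaced *plp1a* at re_12 h against lc_12 h. With the median of ratios *sox10*, lower, replaced *olig2* at re_12 h against lc_24 h, and *fabp7a*, lower, replaced *plp1a* at re_24 h against lc_12 h. The cause of these changes was not tested.

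Leaving out 1 sample at a time gave 3 to 5 genes in er_ab against er_nor, 4 to 5 at lc_12 h against ctrl_108 hpf, 0 to 2 at lc_6 h against ctrl_102 hpf, 0 to 1 at ctrl_108 hpf against ctrl_96 hpf and at re_24 h against ctrl_132 hpf, 1 to 2 at re_2 h and at re_6 h and 5 to 6 at re_24 h against lc_12 h, and 1 to 2 at re_12 h, 1 to 2 in er_ab and 1 to 3 in er_nor against lc_24 h. Pairing by replicate number was checked against a limit set by choice: in 0 of 32 comparisons did all 3 same-numbered pairs have correlated deviations above 0.1. Pairs with different numbers were not compared, so the check cannot show that pairing was absent. The replicate block gave 5 genes in er_ab against er_nor, as without it, and changed no call of the 9. The values are shares of each library and depth was not used, so precision at levels near 1 TPM was not judged from counts.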
